A study of Rattus norvegicus with 12 samples.

Results

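The transcription factors that drive epithelial-mesenchymal transition (EMT) were described in F111 cells, an established Fischer rat fibroblast line. They were taken as 8 genes, Zeb1, Zeb2, Snai1, Snai2, Twist1, Twist2, Prrx1 and Tcf4, and every probe set to which the array's annotation gives a single gene symbol from that list was used. This found 14 probe sets of 7 genes among 31042 probe sets and 14217 genes, and Snai2 was not analysed here. NA16 cells had been kept in suspension over agarose for 16 h, and A16 cells had grown attached to plastic for 16 h, both in Dulbecco's medium with fetal calf serum and with no other agent. Labelled RNA was hybridised to 3 Affymetrix rat genome arrays a state, called biological replicate 1, biological replicate 2 and technical replicate 2. The array of technical replicate 2 was averaged with biological replicate 1, which left 2 replicates a state. The study gives the name NA16 to cells that outlive this time in suspension, when most of the culture has lost viability through anoikis, the cell death that follows loss of attachment. It reports that only a minority of the F111 NA16 population stayed alive, and that these cells showed DNA fragmentation. Its methods name no removal of dead cells before RNA extraction, so RNA of dying cells may be included. NA16 and A16 thus differ in survival as well as in attachment, and the parts of these cannot be told apart. In such bulk RNA, fewer cells that express a gene and less RNA per cell cannot be told apart.

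EMT is the programme by which epithelial cells lose their junctions and become motile, and its factors are known mostly as repressors of epithelial genes. Zeb1 and Zeb2 are zinc-finger proteins, and Snai1 (Snail) and Snai2 (Slug) form another zinc-finger family. Both families bind E-boxes such as CAGGTG, as in the promoter of the E-cadherin gene. Twist1 and Twist2 are basic helix-loop-helix (bHLH) proteins that pair with E proteins, of which Tcf4 (E2-2) is one, and Prrx1 is a homeobox protein of mesenchyme. Fibroblasts are mesenchymal cells, in which several of these factors are normally expressed.

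Values are log2 of the deposited RMA intensity, given for biological replicate 1, biological replicate 2 and technical replicate 2 in that order. The median intensity of an array lay between 152 and 157, and the number of arrays limits the precision. Over all probe sets the NA16 array of technical replicate 2 correlated with biological replicate 2 at 0.9970 and with biological replicate 1 at 0.9929. The A16 array of technical replicate 2 correlated with biological replicate 1 at 0.9970 and with biological replicate 2 at 0.9912, so the labelled repeat resembled different replicates in the 2 states. Among fibroblast markers Col1a1 was at 13.69, 14.58 and 14.28 in NA16 and at 14.28, 14.88 and 14.37 in A16 on the log2 scale, while Dcn and Fap lay below 6.3 on every array. The E-cadherin gene Cdh1, the defining epithelial marker, was low in both states, at 5.26, 5.29 and 5.36 in NA16 and at 5.09, 5.24 and 5.27 in A16. The keratin genes Krt18 and Krt19 also lay below 6.3 on every array. Not all epithelial genes were low, however. Krt8 was at 11.23, 11.41 and 11.49 in NA16 and at 10.04, 10.22 and 10.00 in A16. Krt7 was at 9.61, 9.75 and 9.69 in NA16 and at 11.68, 11.80 and 11.75 in A16.

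In NA16 cells Zeb1 rose and Prrx1 fell by 1 of its probe sets, and the other 12 probe sets did not pass the test. By limma with Benjamini-Hochberg adjustment over all 31042 probe sets and a threshold of 0.05, 1 member probe set was called higher, where 14.3% of all probe sets were, and 1 was called lower, where 13.2% of all were. Neither count of 1 in 14 stood above the background. The 3 NA16 arrays lay all above or all below the 3 A16 arrays in 4 of the 14 probe sets, 3 higher and 1 lower, against 44.3% of all probe sets. The median log2 change, NA16 minus A16, was 0.11 over the 14 probe sets, from -0.43 to 0.87, and -0.02 over all probe sets. Of the 14 changes 11 were positive and 3 negative.

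**Figure D1:**
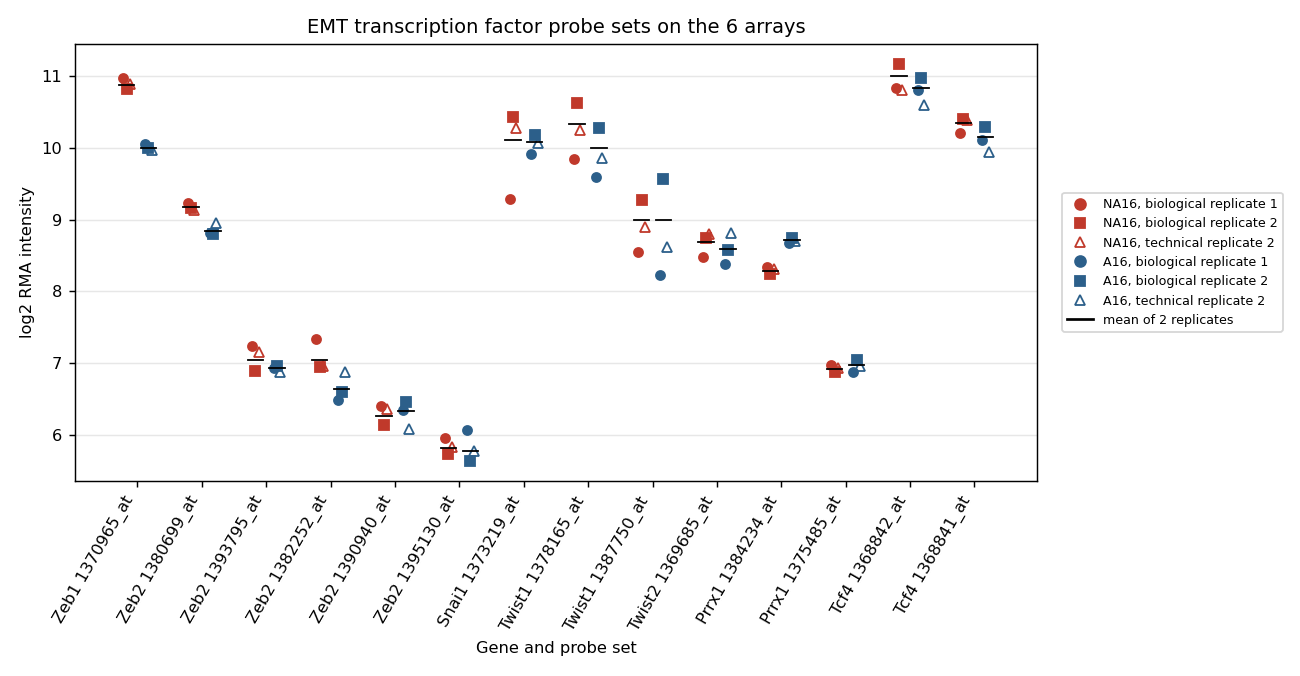
Log2 RMA intensity of the 14 probe sets on each of the 6 arrays, NA16 (red) left of A16 (blue). Filled circles and squares are biological replicates 1 and 2, open triangles technical replicate 2, and bars the mean of the 2 replicates. The Zeb1 values stand apart between the states and the Snai1 and Twist1 values spread within them.

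Zeb1 is read by 1 probe set, 1370965_at, and was the member with the largest change. Its log2 intensity was 10.97, 10.82 and 10.88 in NA16 cells, against 10.05, 10.00 and 9.96 in A16 cells. All 3 NA16 arrays were high and none overlapped with A16, and the arrays of a state lay within 0.15 of each other. The means were 10.87 ± 0.07 in NA16 and 10.00 ± 0.01 in A16 (SD, n = 2 each). The log2 change of 0.87 ± 0.10 (SE) is a 1.83-fold higher level, with an adjusted p of 0.00251 (limma). Averaging technical replicate 2 with the replicate it correlated with best in each state gave 0.91, with an adjusted p of 0.00478, and leaving technical replicate 2 out gave 0.87, with an adjusted p of 0.00817.

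The promoter of Zeb1 is shown because Zeb1 changed most and because these bases hold the E-box that its own protein family binds. It is the stretch of 250 bases before the RefSeq start of the gene (GRCr8, chr17:56810654-56810903, minus strand), with CAGGTG in capitals, and the E-box begins 95 bases before the start. The start region of Snai1, the other member with an E-box there, is given as 30 bases around it (GRCr8), and its E-box begins 142 bases before the start.
Zeb1, promoter: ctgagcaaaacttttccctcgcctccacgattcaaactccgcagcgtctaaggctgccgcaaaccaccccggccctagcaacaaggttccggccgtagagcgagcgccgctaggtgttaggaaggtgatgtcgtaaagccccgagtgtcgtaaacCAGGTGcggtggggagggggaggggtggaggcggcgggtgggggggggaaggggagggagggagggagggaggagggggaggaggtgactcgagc
Snai1, chr3:176667322-176667351, plus strand: gcagcccaggcgCACCTGctctgatcccgg

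CAGGTG was searched on both strands, so that CACCTG counts as the same motif, in the 250 bases before each start. It was present in 2 of the 7 members with a RefSeq promoter, 28.6%, and in 15.9% of all 33469 promoters. The core of the hypoxia response element, ACGTG or GCGTG on either strand, was present in 4 of the 7, Zeb2, Snai1, Twist1 and Twist2. It was absent from those of Zeb1 and Prrx1, the members with a called probe set, and of Tcf4. Of all promoters 36.7% held it, and of the 13242 promoters of genes on the array 50.7%. A match of letters is a description of these windows and not a bound site.

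Zeb2, the close relative of Zeb1, is read by 5 probe sets, and none passed the test. Its probe set 1380699_at had log2 intensities of 9.24, 9.16 and 9.13 in NA16 cells, against 8.81, 8.79 and 8.95 in A16 cells. Every NA16 array was above every A16 array, by a log2 difference of the means of 0.33 ± 0.10 (SE), with an adjusted p of 0.0633 (limma). A second probe set, 1382252_at, had 7.34, 6.95 and 6.96 in NA16 cells, against 6.48, 6.60 and 6.88 in A16 cells. Here too the states did not overlap, with the highest A16 array close below the lowest NA16 array, and the log2 difference was 0.40 ± 0.12 (SE, adjusted p = 0.0535 by limma). The remaining 3 probe sets, 1393795_at, 1390940_at and 1395130_at, lay below the median of every array, overlapped between the states and had log2 differences between -0.07 and 0.11. The lowest adjusted p among these 3 was 0.678. In other fits of limma 1382252_at passed the test with the PLIER values (adjusted p = 0.0478) and with a trend and robust variance prior (0.0430). With a replicate block 1380699_at and 1382252_at both passed (adjusted p = 0.0273 and 0.0131 by limma), but 2 pairs do not settle whether replicates are paired. Probe set 1380699_at also passed with every array as its own replicate (adjusted p = 0.0212 by limma). That fit counts technical replicate 2 as an independent replicate, so its p is too small if it is not.

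The difference between Zeb1 and Zeb2 within an array, by their brightest probe sets, was 1.74 and 1.66 in the NA16 replicates, against 1.13 and 1.20 in the A16 replicates, on the log2 scale. Each NA16 replicate was above each A16 replicate, and the log2 changes of Zeb1 and Zeb2 differed by 0.54. With 2 replicates a state the exact two-sided permutation test cannot go below a p of 0.333, and it gave 0.333, or 0.667 after adjustment over the 2 family pairs tested. The other pair was Twist1 and Twist2, whose log2 changes differed by 0.23, with an exact permutation p of 0.667 and an adjusted value of 0.667.

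Snai1, the first of the Snail repressors, spread widely among the NA16 arrays. Its probe set 1373219_at had log2 intensities of 9.29, 10.43 and 10.27 in NA16 cells, against 9.92, 10.18 and 10.06 in A16 cells. The NA16 array of biological replicate 1 was the lowest of the 6, and the other NA16 arrays were the highest. The range of 1.14 among the NA16 arrays was reached or passed by 0.799% of all probe sets, and the range of 0.26 among the A16 arrays by 42.4%. The means were 10.11 ± 0.46 in NA16 and 10.08 ± 0.13 in A16 (SD, n = 2 each), a log2 difference of 0.02 ± 0.22 (SE) with an adjusted p of 0.967 (limma). With technical replicate 2 left out the difference was -0.19, and with it averaged with the replicate it correlated with best -0.26, so these arrays give no direction for Snai1.

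Twist1, a bHLH factor of mesoderm and of the invading cell, also spread among the arrays of a state. Probe set 1378165_at had log2 intensities of 9.84, 10.62 and 10.24 in NA16 cells, against 9.59, 10.27 and 9.86 in A16 cells. In both states biological replicate 1 was low and biological replicate 2 high, by 0.78 in NA16 and 0.68 in A16 on the log2 scale. The means were 10.33 ± 0.41 in NA16 and 10.00 ± 0.39 in A16 (SD, n = 2 each), a log2 difference of 0.33 ± 0.26 (SE) with an adjusted p of 0.448 (limma). The difference was smaller than the spread between replicates, but much of that spread ran the same way in both states. The replicate values were 10.04 and 10.62 in NA16, against 9.72 and 10.27 in A16.

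The second Twist1 probe set, 1387750_at, had log2 intensities of 8.55, 9.28 and 8.89 in NA16 cells, against 8.23, 9.56 and 8.62 in A16 cells. The highest and the lowest of the 6 values were both A16, with a range of 1.33 that 0.554% of all probe sets reached. The log2 difference was 0.01 ± 0.39 (SE) and the adjusted p 0.993 (limma). Snai1 and both Twist1 probe sets thus had the same order of arrays in both states, with biological replicate 2 highest, technical replicate 2 between and biological replicate 1 lowest. Over all probe sets 2233, or 7.19%, had this order. Whether a property of the arrays or RNA moved these genes was not tested.

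Twist2, the shorter relative of Twist1, was more even. Its probe set 1369685_at had log2 intensities of 8.48, 8.74 and 8.80 in NA16 cells, against 8.39, 8.57 and 8.82 in A16 cells. The states overlapped, and the log2 difference of 0.10 ± 0.10 (SE) had an adjusted p of 0.581 (limma).

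Prrx1, a homeobox factor of limb and craniofacial mesenchyme, is read by 2 probe sets, of which 1 passed the test. This one, 1384234_at, had log2 intensities of 8.33, 8.24 and 8.31 in NA16 cells, against 8.68, 8.74 and 8.70 in A16 cells. All NA16 arrays were below all A16 arrays, and the arrays of each state lay close together. The means were 8.28 ± 0.06 in NA16 and 8.72 ± 0.04 in A16 (SD, n = 2 each), a log2 change of -0.43 ± 0.10 (SE), or 1.35-fold lower, with an adjusted p of 0.0275 (limma). The call did not hold when any 1 of the 4 replicates was left out (adjusted p between 0.0612 and 0.177), with technical replicate 2 left out (0.0727) or averaged with the replicate it correlated with best (0.0530), or in the PLIER values of the same arrays (0.0961), although the log2 change stayed between -0.47 and -0.39 throughout.

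The other Prrx1 probe set, 1375485_at, lay below the median of every array. It had log2 intensities of 6.97, 6.88 and 6.94 in NA16 cells, against 6.87, 7.05 and 6.96 in A16 cells. The states overlapped, with a log2 difference of -0.07 ± 0.11 (SE) and an adjusted p of 0.764 (limma).

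Tcf4, the E protein among the members, is read by 2 probe sets, and both overlapped between the states. Probe set 1368842_at had log2 intensities of 10.83, 11.17 and 10.81 in NA16 cells, against 10.81, 10.96 and 10.60 in A16 cells, a log2 difference of 0.16 ± 0.16 (SE, adjusted p = 0.584 by limma). Probe set 1368841_at had 10.20, 10.40 and 10.38 in NA16 cells, against 10.10, 10.28 and 9.95 in A16 cells, a log2 difference of 0.19 ± 0.13 (SE, adjusted p = 0.380 by limma). In both, the highest array was NA16 and the lowest A16.

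**Figure D2:**
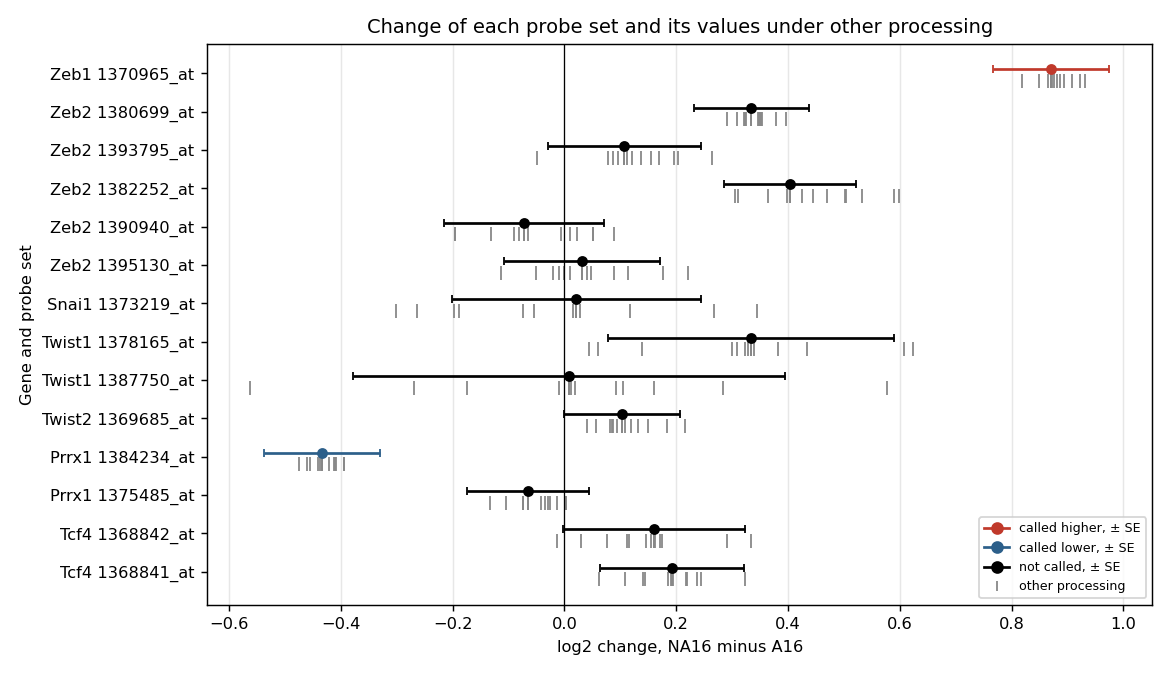
Log2 change, NA16 minus A16, of the 14 probe sets with its standard error (n = 2 replicates a state), and below each the values under the other ways of processing (grey ticks). Zeb1 stayed between 0.82 and 0.93 and Prrx1 1384234_at between -0.47 and -0.39, while the ticks of Snai1 lie between -0.30 and 0.34.

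The pattern of Zeb1 over the 6 arrays was shared by many genes. The other genes with the highest Pearson correlation to it were Bbs4 (0.9997), Eml6 (0.9995) and Klhdc1 (0.9993), and of 20825 other single-symbol probe sets 2009, or 9.65%, correlated above 0.95. Since 6 arrays in 2 states give this measure, it mostly reads the step between NA16 and A16. Bbs4, a subunit of the BBSome complex of the cilium, had log2 intensities of 8.74, 8.50 and 8.62 in NA16 cells, against 7.09, 7.01 and 6.90 in A16 cells, with no overlap between the states.

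Genes that act with the members or on them were then read from lists, each gene by its brightest probe set. Other probe sets of the same gene did not always pass the test or go the same way. At the level of genes 20.0% of all 14217 were called higher in NA16 and 15.4% lower. The first list held the partners and inhibitors of bHLH factors, which bear on Twist1, Twist2 and Tcf4. Id proteins bind E proteins and keep them from DNA. Of its 6 genes 1 rose (16.7%) and 3 fell (50%), with a median log2 change of -0.40 against 0.01 over all genes.

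Id1 had log2 intensities of 11.57, 11.41 and 11.39 in NA16 cells, against 12.54, 12.43 and 12.76 in A16 cells, a change of -1.09 ± 0.12 (SE, adjusted p = 0.00202 by limma). Id3 had 12.34, 11.97 and 12.07 in NA16 cells, against 13.31, 13.37 and 13.54 in A16 cells, a change of -1.31 ± 0.12 (SE, adjusted p = 0.00120 by limma). Both Id genes were lower on every NA16 array, and Id2 was as well, with 10.97, 10.77 and 10.71 in NA16 against 11.26, 11.43 and 11.30 in A16. The change of Id2 was -0.55 ± 0.11 (SE, adjusted p = 0.0148 by limma), and it lost its call without replicate 1 or 2 of NA16 or replicate 2 of A16 (adjusted p up to 0.0930). Tcf12 (HEB), an E protein, went the other way, with 11.66, 11.24 and 11.36 in NA16 against 10.74, 10.55 and 10.66 in A16. Its change was 0.75 ± 0.14 (SE, adjusted p = 0.00997 by limma; 0.0549 without NA16 replicate 1). Tcf3 (E2A) and Id4 did not pass the test, with log2 differences of -0.06 and -0.25, and Tcf3 had the same order of arrays as Snai1 and Twist1.

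**Figure D3:**
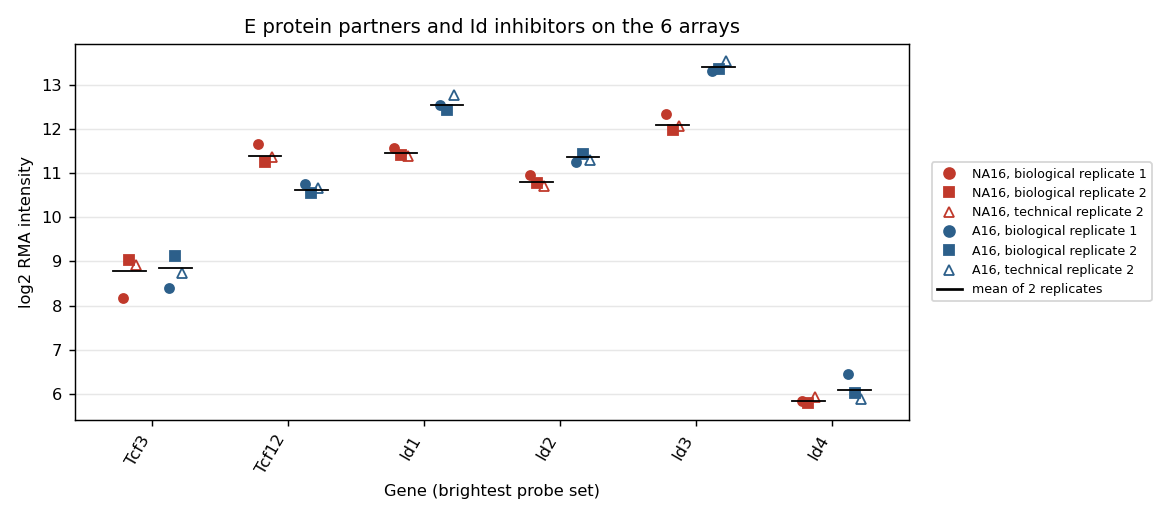
Log2 RMA intensity of the E proteins Tcf3 and Tcf12 and the inhibitors Id1 to Id4 on each of the 6 arrays, NA16 (red) left of A16 (blue), with symbols for replicates and a bar for the mean of the 2 replicates. Id1, Id2 and Id3 lie lower on all NA16 arrays and Tcf12 higher.

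The corepressors and chromatin proteins through which Snail, Zeb and Twist proteins silence genes made up the next list. Of 14 genes 0 rose and 6 fell (42.9%) at the adjusted threshold of limma, and the median log2 change was -0.45. Over all genes 20.0% rose and 15.4% fell. Ajuba, a LIM protein that bridges Snail to Prmt5, had log2 intensities of 10.36, 10.71 and 10.76 in NA16 cells, against 12.59, 12.72 and 12.65 in A16 cells, a change of -2.04 ± 0.11 (SE, adjusted p = 0.000408 by limma). Prmt5, an arginine methyltransferase, had 9.86, 9.97 and 9.96 in NA16 cells, against 11.23, 11.29 and 11.31 in A16 cells, a change of -1.34 ± 0.10 (SE). Thus both partners in that bridge were at lower RNA levels on every NA16 array. Ezh2, the methyltransferase of Polycomb repressive complex 2, fell by 0.95, and the histone deacetylase genes Hdac2 and Hdac1 fell by 0.82 and 0.65 on the log2 scale. The 3 Ezh2 probe sets, 2 of them called lower, had log2 changes from -0.95 to 0.098. Ctbp1, the corepressor that Zeb proteins bind, had -0.48 ± 0.13 (SE, adjusted p = 0.0381 by limma), a call lost without replicate 1 or 2 of A16 or replicate 1 of NA16 (adjusted p up to 0.228).

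Regulators of the stability or place of Snail proteins, which are short-lived in the cell, changed in both directions. Of 12 genes 4 rose and 2 fell, which is 33.3% and 16.7%, against 20.0% and 15.4% of all genes. The median log2 change was 0.15. Pak1, a kinase that phosphorylates Snail, had log2 intensities of 9.91, 10.07 and 10.01 in NA16 cells, against 11.77, 11.66 and 11.92 in A16 cells, a change of -1.74 ± 0.12 (SE, adjusted p = 0.000533 by limma). The ubiquitin ligase gene Mdm2 rose by 0.86 and Loxl2, a lysyl oxidase relative that binds Snail, by 0.67. Fbxl5, an F-box protein that targets Snail, rose by 0.58, with an adjusted p of 0.0649 (limma) without NA16 replicate 1. Cops2, of the COP9 signalosome, had a log2 change of 0.40 and the kinase Lats2 one of -0.56, and both calls were lost without replicate 1 of A16 or either NA16 replicate, that of Cops2 also without replicate 2 of A16.

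Among signals known to induce the members, 24 of 25 genes were measured, and 5 rose and 4 fell, with a median log2 change of -0.03. These shares of 20.8% and 16.7% were near the 20.0% and 15.4% over all genes. Smad3, a mediator of TGF-beta, had log2 intensities of 10.48, 10.98 and 10.94 in NA16 cells, against 9.74, 10.00 and 10.05 in A16 cells. Its change was 0.90 ± 0.13 (SE, adjusted p = 0.00481 by limma), and its other probe set was not called, at 0.12. Hmga2, a chromatin protein that activates Snai1 in mouse and human cells, had 6.74, 6.86 and 7.17 in NA16 cells, against 8.15, 8.39 and 7.99 in A16 cells. Its change was -1.32 ± 0.14 (SE, adjusted p = 0.00174 by limma). In the PLIER values of the same arrays the states overlapped for Hmga2, and the call was lost (-1.48, adjusted p = 0.0519 by limma). The epidermal growth factor receptor gene Egfr rose by 1.01 by its brightest probe set. Its 3 probe sets, 2 of them called higher, had log2 changes from 0.07 to 1.31. In the study's quantitative PCR Egfr was lower in NA16 than in A16, and so was Hif1a, given below. The study's own array values had Egfr higher in NA16 and Hif1a as no change. By immunofluorescence and blotting it found the Hif-1 alpha protein highest in NA16. The other called genes lost their call without at least 1 replicate. They were Fgfr1 (0.96), Hif1a (0.54) and Smad4 (0.46), and Met (-1.31), the inhibitory Smad7 (-1.17) and Tgfb2 (-0.72), each as a log2 change. Without NA16 replicate 1 the adjusted p was above 0.05 for all of these but Fgfr1, for which it was 0.0932 without NA16 replicate 2.

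**Figure D4:**
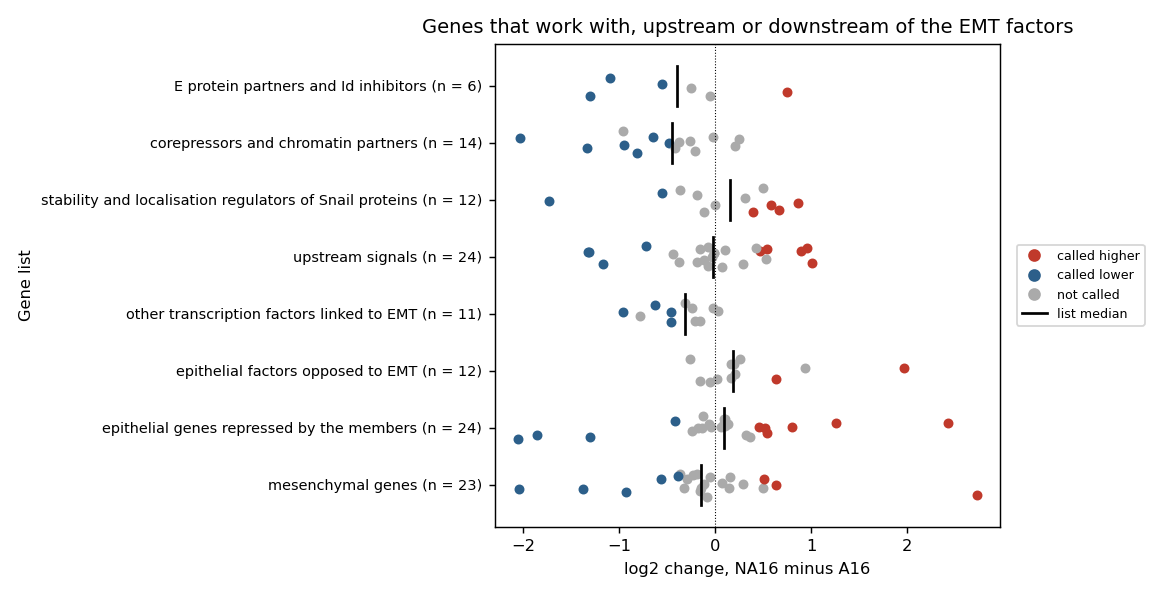
Log2 change, NA16 minus A16, of each measured gene (1 point a gene, its brightest probe set) in 8 lists of genes that work with the EMT factors, act on them or are their targets. Red points were called higher, blue lower and grey not called, and the bar is the median of the list, which was -0.45 for the corepressors and 0.18 for the epithelial factors.

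Of 20 other transcription factors linked to EMT 11 were measured, and 0 rose and 4 fell (36.4%) at the adjusted threshold of limma. Over all genes 20.0% rose and 15.4% fell. The median log2 change of the 11 was -0.31. Prrx2, the close relative of Prrx1, had log2 intensities of 10.35, 10.97 and 10.83 in NA16 cells, against 11.66, 11.70 and 11.92 in A16 cells, a change of -0.97 ± 0.15 (SE, adjusted p = 0.00636 by limma). Every NA16 array was lower, and the call held without each replicate in turn. The other Prrx2 probe set was not called, with a log2 change of -0.32. Tead1, the partner of Yap, had a log2 change of -0.62, Sox4 of -0.46 and Hand2 of -0.46. Each of these 3 calls was lost without NA16 replicate 1. The 7 Sox4 probe sets, 3 of them called lower, had log2 changes from -0.80 to 0.04.

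Of 16 factors that uphold the epithelial state 12 were measured, and 2 rose and 0 fell at the adjusted threshold of limma. The share that rose was 16.7%, against 20.0% of all genes, and 15.4% of all genes fell. Elf3, an epithelial ETS factor, had log2 intensities of 8.10, 8.61 and 8.62 in NA16 cells, against 6.55, 6.45 and 6.62 in A16 cells, a change of 1.97 ± 0.13 (SE, adjusted p = 0.000526 by limma), and the PLIER values of the same arrays gave 3.58. Klf5 had a change of 0.63 ± 0.17 (SE, adjusted p = 0.0435 by limma). Its call was lost without either A16 replicate or without NA16 replicate 1. The 4 Klf5 probe sets, 1 of them called higher, had log2 changes from -0.09 to 0.63.

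Among epithelial genes known as targets of repression by these factors, 24 of 25 were measured, and 6 rose and 4 fell, with a median log2 change of 0.09. The percentages over all genes given above were 20.0% and 15.4%, so neither share was far from them. Cdh1, the classic target of Snail and Zeb proteins, had a log2 difference of 0.09 ± 0.10 (SE) and an adjusted p of 0.633 (limma). In the PLIER values of the same arrays the states did not overlap, with a difference of 0.40 (adjusted p = 0.0984 by limma). Its low values in both states limit what this can show. Tjp3, a tight junction scaffold, had log2 intensities of 8.48, 9.13 and 8.99 in NA16 cells, against 6.87, 6.27 and 6.60 in A16 cells, a change of 2.43 ± 0.20 (SE, adjusted p = 0.000899 by limma), and the PLIER values of the same arrays gave 4.09. Krt8, a keratin of simple epithelia, had 11.23, 11.41 and 11.49 in NA16 cells, against 10.04, 10.22 and 10.00 in A16 cells, a change of 1.26 ± 0.12 (SE). Both were higher on every NA16 array, while Krt7, another keratin of simple epithelia, was lower on every one.

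Krt7 had log2 intensities of 9.61, 9.75 and 9.69 in NA16 cells, against 11.68, 11.80 and 11.75 in A16 cells, a change of -2.06 ± 0.11 (SE, adjusted p = 0.000387 by limma). The desmosome gene Pkp2 fell by 1.86 and Cdh3, the P-cadherin gene, by 1.31, while the polarity gene Patj rose by 0.80. The calls of Epcam (0.54, and 1.11 with PLIER), Muc1 (0.52), Lsr (0.45) and Sfn (-0.42), each with its log2 change, were lost without NA16 replicate 1 and at least 2 other replicates, with an adjusted p up to 0.219. Krt8, Patj, Muc1 and Lsr, and Hdac1 and Ctbp1 above, were named after their values were seen.

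RefSeq gave promoters for 17 of the genes on this list. It gave none for Cdh1, nor for Krt7, Pkp2 and Cdh3, which were called lower. Of the 17, 13, or 76.5%, held CAGGTG in the 250 bases before the start, against 15.9% of all promoters. These genes were listed as targets of factors that bind this motif, so the excess can follow from the choice of list. It is not a result of these arrays. CAGGTG was in 6 of the 6 called higher, in 1 of the 1 called lower and in 6 of the 9 not called, and the last of the 17 had no probe set. These counts stand beside a share of 13 in 17 over the list itself. The E-boxes of the 7 called genes with a promoter are shown, as they are the letters that Snail and Zeb proteins are known to read. Each line gives the bases around the E-box nearest to the start with full flanks (RefSeq, GRCr8), with CAGGTG or its complement CACCTG in capitals.
Epcam, chr6:12649826-12649855, minus strand: ccgggcggcgcgCACCTGgagagggggtgg
Tjp3, chr7:9084393-9084422, plus strand: aaggaggaagagCAGGTGcagcccggagcc
Krt8, chr7:135010536-135010565, minus strand: ctctgctgccctCACCTGagtcctgtccgg
Patj, chr5:118177572-118177601, plus strand: tggagagacgccCAGGTGaggaggccgcca
Muc1, chr2:176933666-176933695, plus strand: tttgttacctgtCACCTGctctgactgtgc
Lsr, chr1:95329487-95329516, minus strand: gaggcaggagcgCACCTGagtcagcccact
Sfn, chr5:151112048-151112077, minus strand: aaggtgcctgttCAGGTGggacccgtggcc

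These E-boxes began between 19 bases before the start, in Tjp3, and 214 bases before it, in Krt8. Of the genes that held the motif 6 were called higher, 1, Sfn, was called lower and 6 were not called. The calls of Epcam, Muc1, Lsr and Sfn were lost without NA16 replicate 1, and 3 of the 4 genes called lower had no promoter to search. These counts therefore give no direction for genes with the motif.

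Of 24 mesenchymal genes 23 were measured, and 3 rose and 5 fell, with a median log2 change of -0.15. These shares were 13.0% and 21.7%, against 20.0% and 15.4% of all genes. Vim (vimentin), Fn1 (fibronectin) and Cdh2 (N-cadherin), the usual EMT markers, did not pass the test, with log2 differences of 0.14, -0.09 and -0.12 and adjusted p of 0.484, 0.685 and 0.772 (limma). Vim was at 14.63, 14.85 and 14.76 in NA16 cells, against 14.58, 14.70 and 14.54 in A16 cells, on the log2 scale. Mmp9, a gelatinase, had 8.23, 8.59 and 8.28 in NA16 cells, against 5.94, 5.43 and 5.97 in A16 cells, a change of 2.73 ± 0.21 (SE, adjusted p = 0.000708 by limma). Detection calls were not used here, and the size of this change against low A16 values depends on the scale, with 3.21 in the PLIER values. The smooth muscle actin gene Acta2 had 9.84, 9.66 and 9.60 in NA16 cells, against 11.53, 12.12 and 11.15 in A16 cells, a change of -2.04 ± 0.25 (SE, adjusted p = 0.00275 by limma).

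Tagln, an actin-binding gene of the contractile cell, fell by 1.38 and Cdh11, a cadherin of mesenchyme, by 0.93. The 3 Cdh11 probe sets, 2 of them called lower, had log2 changes from -0.93 to 0.13. The calls of Itgb1 (-0.56) and Mmp2 (0.64) were lost without NA16 replicate 2, with adjusted p of 0.0989 and 0.0829, those of Cd44 (0.51) without either NA16 replicate or A16 replicate 1, and that of Lox (-0.38) without any 1 replicate.

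Markers of other cells were read beside these results. Of 15 fibroblast markers 4 rose, Pdgfrb, Lum, Pdgfra and Col6a1, and 0 fell at the adjusted threshold of limma. The summed intensity of the 15 was 96238 to 135463 in NA16, against 114498 to 143645 in A16. The 3 Pdgfrb probe sets, 1 of them called higher, had log2 changes from 0.16 to 1.40. Of 10 macrophage markers Cd68 and Lyz2 rose, and the sum was 2077 to 2373 in NA16, against 2028 to 2307 in A16, with the defining Ptprc and Csf1r below 6.1 on the log2 scale on every array. Of 7 endothelial markers measured Pecam1 rose and Egfl7 fell, and the sum was 969 to 1019 in NA16, against 1036 to 1183 in A16. Of 11 muscle and adipocyte markers 3 rose, Des by 2.48, Cfd by 1.97 and Myh11 by 0.68, and the sum was 4811 to 6339 in NA16, against 1669 to 1689 in A16. Myod1, Adipoq and Fabp4, which define muscle cells and adipocytes, were below 6.1 on the log2 scale on every array. In the PLIER values Pecam1 had a log2 change of 1.43, Lyz2 of 0.63, Cd68 of 2.11 and Myh11 of 1.20, against 0.48, 1.15, 1.46 and 0.68 in the RMA values. The call of Col6a1 was lost without NA16 replicate 2, and those of Pecam1, Egfl7 and Myh11 without either NA16 replicate or A16 replicate 2, that of Egfl7 also without A16 replicate 1. Called higher were 26.7% of fibroblast, 20.0% of macrophage, 14.3% of endothelial and 27.3% of muscle and adipocyte markers, against 20.0% of all genes. Called lower were 14.3% of endothelial markers and none of the others, against 15.4% of all genes. The part of these markers in the changes of the EMT factors was not tested.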

How the data were processed

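RNA of F111 cells in suspension (NA16) or attached (A16) was hybridised to 3 arrays a state. The authors deposited intensities on a linear scale, 1 column for each array and algorithm (RMA or PLIER, in Avadis, with versions not given in the sources used here). Every intensity was at least 16, so a constant seems to have been added, which would understate changes of dim genes. The 6 PLIER columns come from the same 6 arrays and served as an alternative. The labels do not state which biological replicate technical replicate 2 repeats. They call the other arrays biological replicates, without saying that they were separate cultures, and p-values measure only the spread between these samples.

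Log2 intensities of 31042 probe sets, controls left out, were fitted with lmFit and eBayes (limma 3.58.1, R 4.3.3; 2 residual and 3.75 prior degrees of freedom), with Benjamini-Hochberg adjustment over all probe sets and a threshold of 0.05. A count for genes takes the brightest probe set of each of 14217 genes, with its p adjusted over the 31042 probe sets. The fit was tested on simulated data. Probe sets are named by the platform annotation where it gives 1 symbol. All member probe sets are described. Elsewhere up to 4 called genes a list, the genes behind counts of 5 or fewer, and Cdh1, Epcam, Cdh2, Vim and Fn1 are named, and 3 genes for likeness to the member that changed most. The members and the 12 lists were chosen with earlier results of these data known. Promoters and their coordinates come from RefSeq (GRCr8). The alternatives were PLIER, quantile normalization, subtraction of 16, a filter at a mean log2 of 6, 1 probe set a gene, another variance prior, a replicate block, other uses of technical replicate 2, leaving out each replicate, and the methods' t-test. Python 3.11.15 with SciPy 1.17.1 was used.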

Additional observations from a re-analysis of the deposited data

How the results depend on the processing

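Zeb1 stayed called in 16 of 17 alternatives (not by the methods' t-test, adjusted p = 0.0882) and Prrx1 1384234_at in 8 of 17, with log2 changes of 0.82 to 0.93 and -0.47 to -0.39 over all 17. The main fit of limma called 8527 probe sets, the alternatives 5504 with 1 probe set a gene (fewer probe sets were tested) and 0 by the methods' t-test after adjustment, where 8023 were below an unadjusted p of 0.05. Member probe sets called higher were 1 in the main fit, 2 with PLIER, 2 with every array as its own replicate, 2 with a trend and robust variance prior, 4 with the replicate block and 0 by the methods' t-test. Those called lower were 1 in the main fit and 0 with PLIER, with technical replicate 2 left out, with it averaged with the replicate it correlated with best (an alternative chosen after seeing the data), with the trend and robust prior and by the methods' t-test. Leaving out 1 replicate gave 1 higher and 0 lower each time and 5874 to 7647 calls over all probe sets, with the lone replicate of a state assumed to vary like the others. The replicate numbers are shared by the states, and replicate 1 minus replicate 2 correlated at 0.54 between them over probe sets, but 2 pairs do not settle a pairing. With the replicate block 11873 probe sets were called, and Zeb2 1380699_at (adjusted p = 0.0273), Zeb2 1382252_at (0.0131) and Twist1 1378165_at (0.0270) joined Zeb1 (limma).

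Signs turned for probe sets that were not called. Snai1 had -0.055 with every array as its own replicate, -0.20 with technical replicate 2 averaged with biological replicate 2, -0.26 with the best correlated replicate and -0.19 with it left out, and -0.30 to 0.34 without 1 replicate. Zeb2 1390940_at had 0.089 with PLIER, 0.0094 with every array as its own replicate, 0.022 with biological replicate 2, and -0.20 to 0.051 without 1 replicate. Zeb2 1395130_at had -0.020 with biological replicate 2, -0.0095 with technical replicate 2 left out, -0.00076 without the NA16 biological replicate 1 array (chosen after seeing the data), and -0.11 to 0.18 without 1 replicate. Twist1 1387750_at had -0.0100 after quantile normalization, -0.17 with the best correlated replicate, and -0.56 to 0.58 without 1 replicate. Prrx1 1375485_at had 0.0028 with biological replicate 2. Without 1 replicate, Prrx1 1375485_at lay between -0.13 and 0.0021, Zeb2 1393795_at between -0.049 and 0.26, Tcf4 1368842_at between -0.013 and 0.33, Cdh2 between -0.34 and 0.11, Fn1 between -0.18 and 0.00020, and Tcf3 between -0.34 and 0.22. Tcf3 had 0.13 without the NA16 biological replicate 1 array. The cause was not tested. Of the genes named from lists, 920 results kept their direction and side of the threshold, 194 lost the call and 6 turned sign. Signal near the bottom of the scale limits the 4 member probe sets below the array medians.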
